A study of Homo sapiens with 12 samples.

Results

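Chromosome 19 carries long arrays of zinc finger genes, and the accessibility of 240 of their promoters was compared between cells with and without silencing of MUC1. The 240 genes were the protein-coding genes of GENCODE v44 on chromosome 19 whose symbol is ZNF followed by a number, out of 1476 protein-coding genes on that chromosome and 20033 in the genome. They were defined by name and position, without accessibility values in the rule, though the set was chosen with earlier results of these data known. Each gene was represented by the 100 bp bin with the highest mean value over the 6 libraries of a line, among the bins within 1 kb of any annotated transcription start site (TSS). The other protein-coding promoters of chromosome 19 were treated in the same way and served as the comparison.

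ATAC-seq, in which a transposase cuts and tags accessible DNA, had been performed on DU-145 castration-resistant prostate cancer (CRPC) cells and BT-549 triple-negative breast cancer (TNBC) cells. All cells of both lines carried an inducible short hairpin RNA against MUC1 (tet-MUC1shRNA), which doxycycline (DOX) switches on. The 4 groups were DU-145 vehicle, DU-145 DOX, BT-549 vehicle and BT-549 DOX, with 3 biologically independent replicates each, and the DOX and vehicle (0.1% DMSO) exposures lasted 7 days. The labels call the vehicle cells untreated. No library of DOX on a control hairpin was among those analysed here, and the effects of losing MUC1 and of DOX itself cannot be told apart. Each line stands for 1 tumor, and in bulk chromatin fewer cells with an open promoter and a less open promoter in every cell cannot be told apart.

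Most of these genes encode C2H2 zinc finger proteins, whose finger arrays read DNA sequence. Many also carry a KRAB domain, which recruits the corepressor TRIM28 and, through it, the histone methyltransferase SETDB1 and HP1 proteins, and the complex silences transposable elements and other loci. The genes arose by repeated duplication and sit side by side in clusters. Some lie in chromatin that carries H3K9me3 over the gene bodies while the promoters stay open. Near-identical copies can share fragments, and the filter on mapping quality is not given in the sources used here, so values of close paralogues are uncertain to that extent.

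Promoters of some of the members that changed are shown as the 150 bases directly before the RefSeq start next to the measured bin (GRCh38.p14, 5′ to 3′ on the strand of the gene, none of these bases lying in a protein-coding exon). Capitals mark matches to the 9 motifs described in the next paragraph. The first 3 belong to promoters that fell in DU-145 cells, the fourth to the promoter with the highest fold change in DU-145 cells, and the last 2 to the promoters that rose most in BT-549 cells. They lie at chr19:23395472-23395621 (ZNF91, minus strand), chr19:21329411-21329560 (ZNF708, minus strand), chr19:37078283-37078432 (ZNF420, plus strand), chr19:57727625-57727774 (ZNF671, minus strand), chr19:44500523-44500672 (ZNF180, minus strand) and chr19:43596242-43596391 (ZNF576, plus strand).
ZNF91: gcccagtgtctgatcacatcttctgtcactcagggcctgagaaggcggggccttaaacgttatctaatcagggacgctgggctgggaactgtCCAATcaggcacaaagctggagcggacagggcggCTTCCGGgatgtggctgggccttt
ZNF708: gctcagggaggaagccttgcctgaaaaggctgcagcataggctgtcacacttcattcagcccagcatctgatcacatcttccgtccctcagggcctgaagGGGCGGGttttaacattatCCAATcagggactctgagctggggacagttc
ZNF420: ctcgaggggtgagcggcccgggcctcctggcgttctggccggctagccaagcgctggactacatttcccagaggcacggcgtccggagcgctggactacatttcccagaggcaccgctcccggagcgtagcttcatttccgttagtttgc
ZNF671: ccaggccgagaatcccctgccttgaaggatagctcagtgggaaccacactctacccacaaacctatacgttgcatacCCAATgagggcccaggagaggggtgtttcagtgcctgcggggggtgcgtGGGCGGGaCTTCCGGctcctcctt
ZNF180: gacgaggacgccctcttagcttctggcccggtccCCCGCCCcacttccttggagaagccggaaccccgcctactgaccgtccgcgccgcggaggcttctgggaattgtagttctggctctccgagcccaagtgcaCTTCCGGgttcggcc
ZNF576: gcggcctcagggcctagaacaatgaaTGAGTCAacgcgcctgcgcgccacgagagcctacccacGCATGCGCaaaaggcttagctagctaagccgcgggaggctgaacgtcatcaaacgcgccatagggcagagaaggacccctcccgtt
The ZNF91 stretch held ETS and NFY matches, ZNF671 ETS, NFY and SP matches, ZNF708 an NFY and an SP match, ZNF180 an ETS and an SP match, and ZNF576 an AP-1 and an NRF1 match. The ZNF420 stretch held no match to these letters.

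Motifs were searched on both strands in the RefSeq promoters (250 bases before to 50 after a start), and matches of different motifs could share bases. RefSeq promoters were found by symbol for 210 of the 240 members. The ETS core CCGGAAG, read by a family of transcription factors, was found in 98 of these 210 genes (46.7%), against 159 of 957 other protein-coding genes of chromosome 19 (16.6%) and 2565 of 15345 protein-coding genes of the genome (16.7%). Over single promoters of that length, 104 of 261 member promoters (39.8%) and 3603 of all 35116 promoters (10.3%) held it. The NFY box CCAAT was found in 56.2% of members, 42.3% of other chromosome 19 genes and 42.5% of all protein-coding genes. The TATA letters TATAAA went the other way, at 3.33% of members, 8.99% of other chromosome 19 genes and 12.4% of all protein-coding genes. The SP box GGGCGGG was about as common in members (56.2%) as in other chromosome 19 genes (57.1%). The remaining letters were rare in members, at 2.86% for AP-1 (TGACTCA), 4.29% for CRE (TGACGTCA), 4.76% for NRF1 (GCATGCGC), 6.19% for YY1 (AAGATGGC) and 0.952% for the Kaiso-type palindrome CTCGCGAG. In other chromosome 19 genes the shares were 4.28%, 3.97%, 6.27%, 6.27% and 1.25%, in the same order. Over all 35116 promoters the shares were 34.6% for NFY, 11.5% for TATA, 33.1% for SP, 4.95% for AP-1, 1.85% for CRE, 3.05% for NRF1, 2.89% for YY1 and 1.02% for the palindrome. These shares are descriptions of sequence and were not tested.

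The value of a bin is its mean fragment coverage, divided here by the sum of the library over all bins of the line and scaled to a sum of 1000000 (coverage per 1000000). Library sums ran from 12370094 to 25232000 in DU-145 cells, whereas the BT-549 libraries summed to between 9142900 and 13606129 under vehicle and between 2502510 and 3267024 under DOX, so the last group was the least deeply covered. The median member bin held an unscaled coverage of 56.5 to 105 in DU-145 libraries. The matching ranges for BT-549 were 35.2 to 60.6 (vehicle) and 10.8 to 14.8 (DOX). Over the member bins, replicates correlated at r = 0.967 to 0.977 in the DU-145 groups (206 bins). Over the 219 bins of BT-549 cells r was 0.919 to 0.945 under vehicle and 0.782 to 0.800 under DOX. These are values across bins of shared libraries and not independent replicates. At MUC1 itself, the highest promoter bin in DU-145 cells (chr1:155193601-155193700) fell from 9.64, 8.83 and 7.78 with vehicle to 6.90, 6.88 and 5.79 with DOX (adjusted p = 0.00185). The highest bin in BT-549 cells, at chr1:155193501-155193600, had a log2 fold change of -0.38 (adjusted p = 0.0900). Promoter accessibility does not measure the silencing by the hairpin. In DU-145 cells 45.5% of all protein-coding promoters were lower at an adjusted p under 0.05, with a median log2 fold change of -0.29. Promoter bins of the epithelial genes KRT8, KRT18, EPCAM and CDH1 were listed in DU-145 cells only, and those of the mesenchymal genes VIM and ZEB1 in both lines. Bins of the leukocyte gene PTPRC and of KLK3 were listed in neither.

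Members were more often accessible than their neighbours on the chromosome. In DU-145 cells 212 of 240 members (88.3%) had a bin, against 852 of 1236 other chromosome 19 genes (68.9%), and in BT-549 cells 225 members (93.8%) against 778 others (62.9%). Of the members, 210 had a bin in both lines. ZNF560 and ZNF90 had one in DU-145 cells only, and both held peaks in all 6 DU-145 and in no BT-549 library. A further 15 members had a bin in BT-549 cells only, namely ZNF556, ZNF439, ZNF69, ZNF626, ZNF257, ZNF98, ZNF492, ZNF536, ZNF577, ZNF350, ZNF610, ZNF578, ZNF415, ZNF665 and ZNF814. No bin was listed in either line for 13 members, namely ZNF177, ZNF208, ZNF676, ZNF729, ZNF99, ZNF723, ZNF728, ZNF404, ZNF541, ZNF534, ZNF835, ZNF154 and ZNF132, and these values are missing, not zero. Because neighbouring genes often start within the same window, 42 members in each line had a highest bin that was also the highest of another gene, and 12 in each line shared it with another member. The 212 members of DU-145 cells therefore stood on 206 bins and the 225 of BT-549 cells on 219.

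The peaks that had been called in each library gave a second readout of presence. A peak overlapped the 1 kb window of 208 to 212 members under vehicle and of 212 to 213 under DOX in DU-145 libraries. It did so for 225 members in each BT-549 vehicle library and for 204 to 217 in the BT-549 DOX libraries. The other chromosome 19 genes fell from between 796 and 852 with a peak in BT-549 vehicle libraries to between 701 and 735 in the DOX libraries, beside the lower coverage of those libraries. The part of coverage in these losses was not tested. In all 12 libraries 184 members had a peak, and in none 13 had. ZNF358, ZNF709, ZNF98 and ZNF536 had a peak in every BT-549 vehicle library and in no BT-549 DOX library. This pattern was not counted in other genes, so it cannot be called particular to members. No member gained a peak in all 3 DOX libraries of a line that lacked it in all 3 vehicle libraries.

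Levels differed between members by more than replicates did. In DU-145 vehicle cells the highest level was that of the bin shared by ZNF146 and ZNF565, at 21.0 ± 0.706 (SD, n = 3). ZNF146 encodes a short protein made almost wholly of zinc fingers, without a KRAB domain. ZNF497 (17.6 ± 2.67), ZNF558 (16.3 ± 0.183) and ZNF574 (15.6 ± 1.43) followed. The libraries of neighbours in this order overlapped, from 20.3 to 21.7 and 15.6 to 20.6 in the first 2 to 14.3 to 17.1 in ZNF574. In BT-549 vehicle cells ZNF497 was highest at 16.6 ± 2.21, followed by ZNF444 (13.4 ± 0.752), ZNF446 (13.4 ± 0.699), ZNF460 (12.6 ± 0.534) and ZNF837 (12.1 ± 0.910). ZNF497 lay above the other 4 in every library (at least 14.7 against at most 14.2), and neighbours among those 4 overlapped. ZNF444 encodes a protein with a SCAN domain, which pairs such proteins with each other. Vehicle levels in the 2 lines correlated at r = 0.57 over the 210 members with a bin in both, which share the genome sequence but come from separately made tables.

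In DU-145 cells DOX lowered the promoters of 59 of 212 members (27.8%) and raised 3 (1.42%) at an adjusted p under 0.05. Over all 709226 bins tested, 11.8% were lower and 22.8% higher. The members moved as other promoters of the chromosome did, since 248 of 820 others (30.2%) were lower and 42 (5.12%) higher. Promoters on other chromosomes were lower more often (46.7% of 13364) and higher in 3.35%. The median log2 fold change was -0.17 in members and -0.17 in other chromosome 19 promoters, against -0.30 on other chromosomes and 0.20 over all bins. The member median stayed below 0 in every alternative run, between -0.02 with loess offsets and -0.32 with DESeq2. Relative to the median of all bins it was -0.37 with library sums, with TMM factors and with DESeq2, -0.24 with the GC trend removed and -0.01 with loess offsets. The split of calls moved with the scaling, from 3 higher and 59 lower to 1 and 95 with TMM factors, 0 and 58 with DESeq2 (1 higher at an unadjusted p under 0.05), 1 and 91 with the GC trend removed and 7 and 15 with loess offsets. The split of the other promoters moved likewise with loess offsets, to 57 higher and 51 lower. No member reached the cutoffs of the study for a differentially accessible region (DAR), a fold change of 2 and an adjusted p under 1e-05, which 5.0% of all bins passed as opening and 1.59% as closing. Of the other chromosome 19 promoters, 5 opened and 2 closed by that rule.

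**Figure D1:**
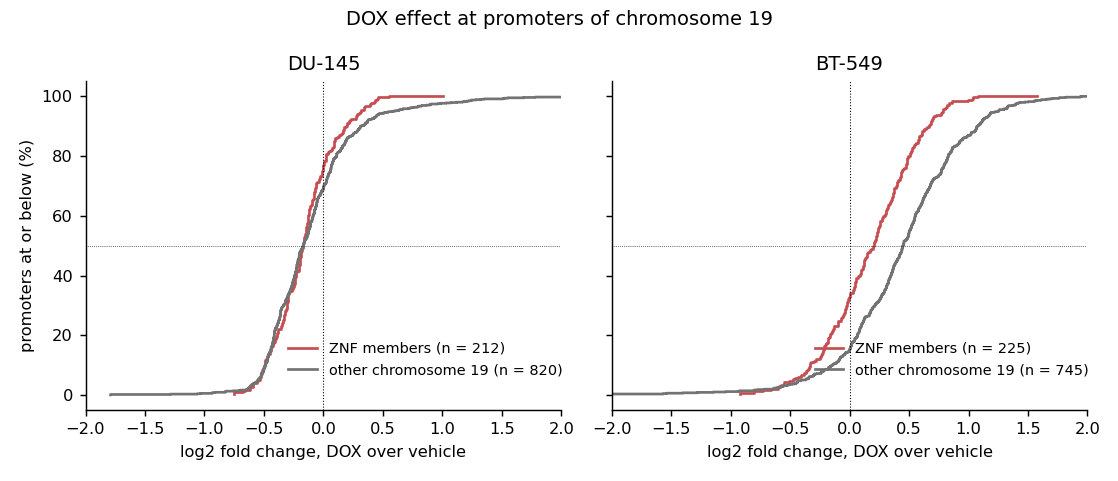
Cumulative share (%) of promoters at or below each log2 fold change (DOX over vehicle, library sums) for ZNF members and other chromosome 19 promoters in DU-145 (212 and 820) and BT-549 (225 and 745) cells. The dotted lines mark no change and the median. The curves cross at a median of -0.17 in DU-145, and in BT-549 the member curve lies to the left (medians 0.21 and 0.45). The axis ends at -2 and 2, and some other promoters lie beyond it.

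ZNF91, which represses SVA and L1 retroelements, was among the members that fell most clearly. Its bin just upstream of the start (chr19:23395501-23395600), which lies whole within the stretch printed above, read 9.46, 8.52 and 8.18 in the vehicle libraries and 5.91, 5.45 and 4.96 in the DOX libraries of DU-145 cells. The fold was 0.626 (log2 -0.68, SE 0.116, adjusted p = 2.31e-06). Every DOX value lay below every vehicle value, but such a lack of overlap was a condition for naming members by their adjusted p in a line. In DU-145 cells it held in this direction for 38.7% of members, 39.0% of other chromosome 19 promoters and 51.9% of all protein-coding promoters. Of the 10 bins around this start, 5 were lower and none higher in the edgeR test. Neighbouring bins can share fragments, so these calls are not separate readings. ZNF708, from the same gene cluster as ZNF91, had the lowest fold of all members at 0.594 (log2 -0.75, SE 0.134, adjusted p = 4.87e-06). Its bin (chr19:21329401-21329500) fell from 7.31, 5.49 and 6.42 to 4.07, 3.47 and 3.76. ZNF420, known as a negative regulator of p53, had the smallest adjusted p of the members (3.97e-07). Its bin at chr19:37078301-37078400, in an intron of the longest transcript and just upstream of an inner start, fell from 15.7, 12.3 and 12.4 to 8.90, 7.74 and 8.85 (log2 -0.66, SE 0.105). At the 5′ end of the annotated gene instead, the value was 0.155 with an adjusted p of 0.800. No difference was thus detected at that start region.

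The bin shared by ZNF146 and ZNF565, which lie on opposite strands, fell from 21.7, 21.1 and 20.3 to 15.4, 14.7 and 14.1 (log2 -0.52, SE 0.088, adjusted p = 1.98e-06). ZNF497 fell from 20.6, 15.6 and 16.5 to 11.6, 11.9 and 12.2 (log2 -0.55, SE 0.097, adjusted p = 4.05e-06). The bin shared by ZNF540 and ZNF571 fell from 10.9, 8.68 and 9.28 to 5.95, 6.38 and 6.47 (log2 -0.60, SE 0.113, adjusted p = 1.55e-05). Groups did not overlap in any of the 3, as the choice of named members required. With loess offsets the calls of ZNF146, ZNF565 and ZNF497 were lost (-0.05 at an adjusted p of 0.657 for the shared bin and -0.12 at 0.292 for ZNF497), and at the 5′ ends of the genes ZNF565 read 0.788 (adjusted p = 0.223) and ZNF540 0.068 (adjusted p = 0.893).

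Only 3 members rose in DU-145 cells, and they started from low levels. ZNF671, a gene whose promoter is often methylated in carcinomas, went from 0.481, 0.783 and 0.551 to 1.33, 1.45 and 1.15, a fold of 2.01 (log2 1.005, SE 0.272, adjusted p = 0.00226). Its vehicle level ranked 208 of the 212 members, and its adjusted p was above the cutoff for a DAR. In BT-549 cells the same bin was open at 4.24, 5.08 and 4.42 with vehicle. ZNF222 rose from 1.47, 1.38 and 2.07 to 2.08, 2.33 and 2.48 (adjusted p = 0.0231) and ZNF233 from 3.68, 4.44 and 4.02 to 5.03, 5.54 and 5.07 (adjusted p = 0.0369). The ranges did not overlap in these 3, a condition for naming them that 5.66% of members and 8.66% of other chromosome 19 promoters met in this direction. However, DESeq2 called none of them (adjusted p = 0.125 for ZNF671, 0.441 for ZNF222 and 0.558 for ZNF233). TMM factors ended the calls of ZNF222 (0.0970) and ZNF233 (0.255).

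The change in DU-145 cells went with the level of the promoter. Over the 212 members the log2 fold change correlated with the log2 mean level at r = -0.66, where both measures share the same libraries, and over the 820 other promoters at r = -0.52. By quartile of the member level, 3.77%, 11.3%, 37.7% and 58.5% of 53 members each were lower, from the least to the most accessible. The other promoters within the same level limits showed 5.96%, 15.6%, 31.0% and 67.1%. Loess offsets, which remove a trend of fold change with level, left 15 lower calls. In BT-549 cells the same correlation was r = 0.10 over 225 members.

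**Figure D2:**
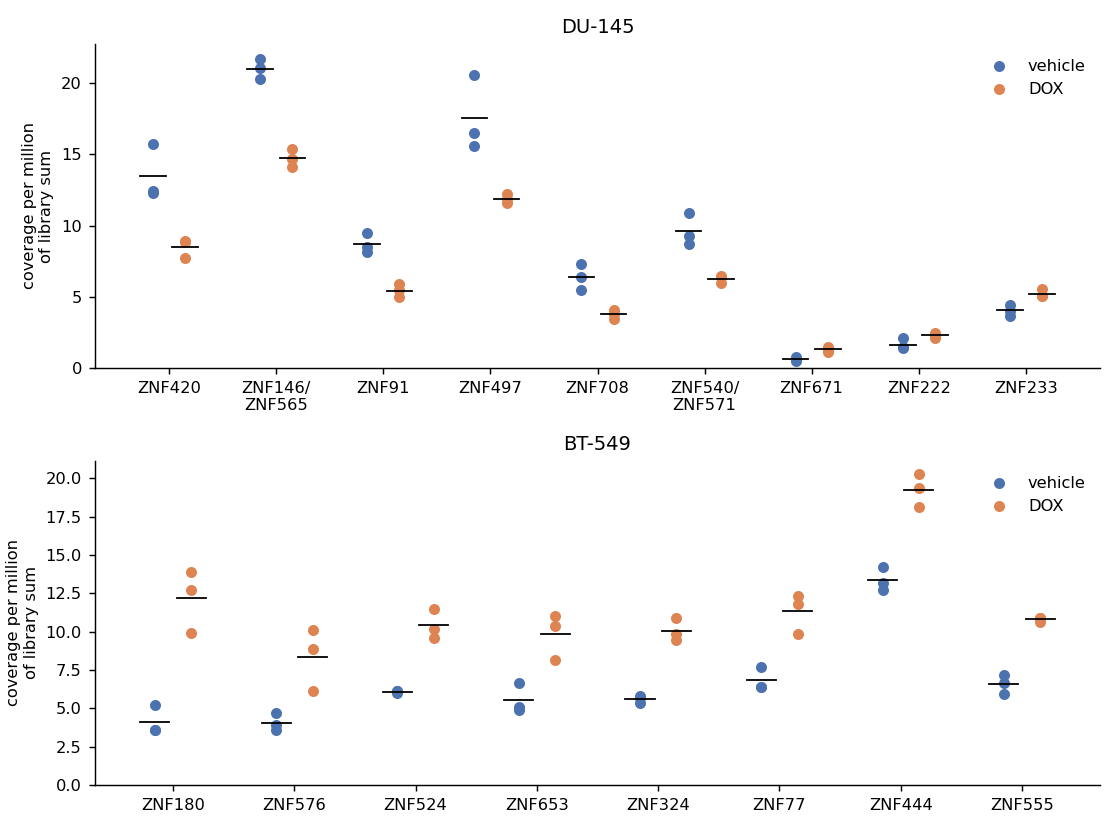
Coverage per 1000000 of the library sum in each library (points) with the group mean (bar) in DU-145 (top) and BT-549 (bottom), n = 3 per group. The members shown had the smallest adjusted p among those whose groups did not overlap, so the lack of overlap was set by the choice. In DU-145 the 3 DOX points lie below the 3 vehicle points for the first 6 bins and above them for ZNF671, ZNF222 and ZNF233, and in BT-549 they lie above them for all 8 members.

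The lower calls gathered in 2 of the 16 position clusters, which were separated wherever neighbouring starts lay over 1 Mb apart. Cluster 9, the 24 genes from ZNF146 to ZNF573 at 36.2 to 37.8 Mb, had 19 lower calls (79.2%) and a median log2 fold change of -0.45. These genes stood on 20 bins, so a shared bin, such as that of ZNF146 and ZNF565, counts as 2 calls. Of 5 other promoters inside the cluster, 3 were lower. Over all bins tested 11.8% were lower, and 67.1% of other chromosome 19 promoters in the highest quartile of level. The summed coverage of cluster 9 over its 20 bins was 184 ± 8.37 per 1000000 with vehicle and 140 ± 4.37 with DOX (SD, n = 3), and the lowest vehicle library (179) lay above every DOX library. Cluster 5, the 37 genes from ZNF101 to ZNF254 at 19.7 to 24.1 Mb that include ZNF91 and ZNF708, had 15 lower calls among 27 members with a bin (55.6%) and a median of -0.35. Its sum over 27 bins was 146, 127 and 133 with vehicle and 107, 101 and 103 with DOX. The median vehicle levels of these clusters were 8.41 and 5.14. By contrast, cluster 15, the 39 genes from ZNF175 to ZNF331 at 51.6 to 53.6 Mb, had a median vehicle level of 2.73, 1 lower call among 32 and a median of -0.05, and cluster 16, the 57 genes from ZNF628 to ZNF446 at 55.5 to 58.5 Mb, had 7 lower calls among 53 and a median of -0.14. The medians of clusters 5 and 9 stayed below 0 under every scaling, with 9 and 3 lower calls under loess offsets, whereas that of cluster 16 turned to 0.02 under loess offsets. The part of the level in these differences between clusters was not tested.

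**Figure D3:**
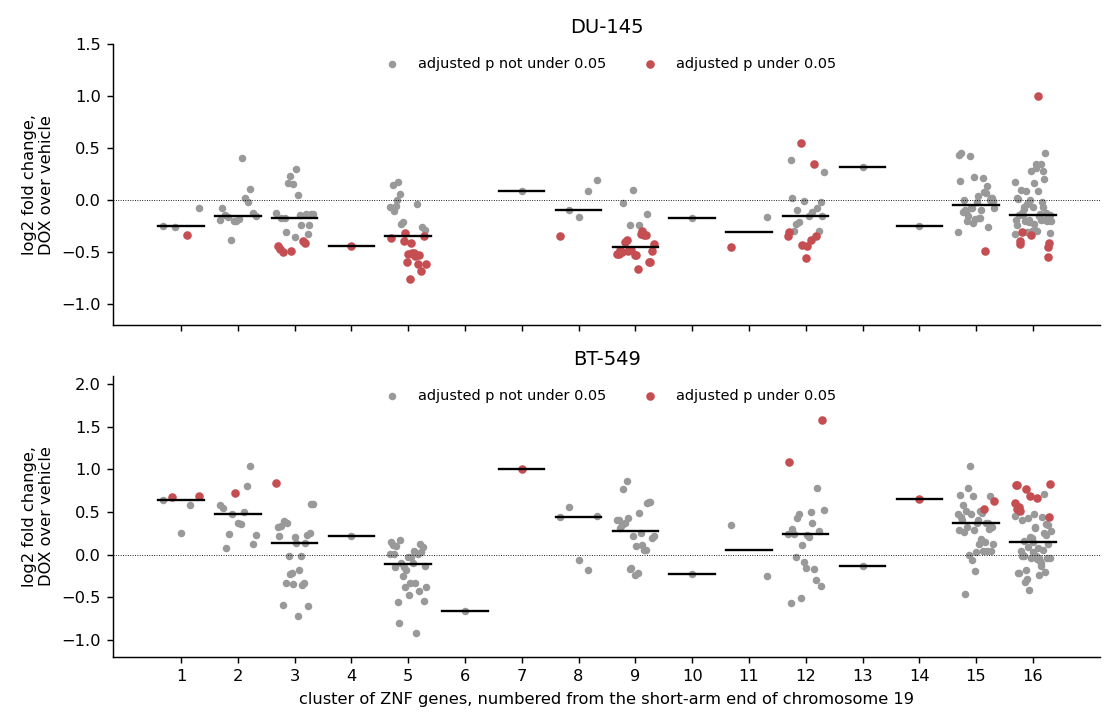
Log2 fold change (DOX over vehicle) of each member, grouped by its position cluster, in DU-145 (top) and BT-549 (bottom). Points in red have an adjusted p under 0.05 and the bars are cluster medians. In DU-145 the red points fill most of clusters 5 and 9, and in BT-549 cluster 5 has a median of -0.12 while those of clusters 9 and 15 are 0.28 and 0.37.

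In BT-549 cells DOX raised 21 of 225 members (9.33%), and edgeR called none lower, where 5.03% of all 472935 bins were higher and 5.91% lower. At an unadjusted p under 0.05, 49 members were higher and 4 lower. DESeq2 called 6 members higher and 0 lower (31 and 0 at an unadjusted p under 0.05, with 1 member left without an adjusted p), and limma 16 and 0 (47 and 9). Lower calls appeared with other readings of the promoter, 4 with the bin highest under vehicle, 6 with the sum of all bins in the window (39 higher) and 1 with the GC trend removed. The other chromosome 19 promoters behaved otherwise, with 239 of 745 (32.1%) higher and 6 lower. On other chromosomes 12.4% of 12783 promoters were higher. The median log2 fold change was 0.21 in members and 0.45 in the other promoters of the chromosome, against 0.17 on other chromosomes and -0.06 over all bins. The members were thus near the promoters of the rest of the genome, and the other genes of chromosome 19 stood above both. The member median lay between 0.09 (GC trend removed) and 0.28 in the alternatives, and always below that of the other promoters, by 0.19 to 0.30. Other promoters restricted to the middle range of the members' GC content had a median of 0.39, and those restricted to the middle range of their level 0.46. By quartile of level, 1.75%, 1.79%, 3.57% and 30.4% of members were higher. Of the other promoters within the same limits, 27.2%, 33.0% and 51.4% were higher in the upper 3 quartiles and 34 of 261 in the lowest.

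The same difference showed in every library. The summed coverage of the member bins, as a share of that of the other chromosome 19 promoter bins, was 36.6%, 36.8% and 36.3% in the BT-549 vehicle libraries (36.6% ± 0.252, SD, n = 3). It was 30.3%, 31.1% and 30.9% in the BT-549 DOX libraries (30.8% ± 0.416), so that the groups lay far apart for their spread. In DU-145 cells the share was 29.6%, 29.0% and 28.7% with vehicle and 30.2%, 28.2% and 29.3% with DOX, overlapping between groups. As a ratio within a library, it does not depend on the library sum. The summed member coverage itself was 1029 ± 103 per 1000000 with vehicle and 1202 ± 104 with DOX in BT-549 cells, and that of the other promoters 2816 ± 262 and 3904 ± 295. The share moved together with the lower coverage of the BT-549 DOX libraries, and the part of that coverage was not tested.

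**Figure D4:**
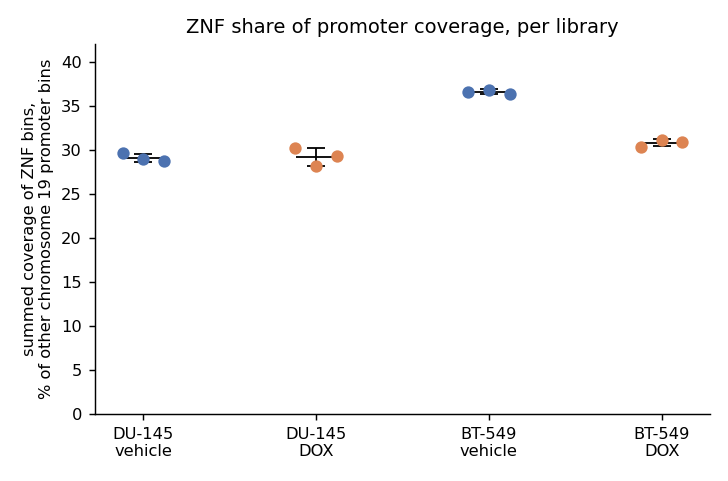
Summed coverage of ZNF member bins as a percentage of the summed coverage of other chromosome 19 promoter bins, per library (points), with mean and SD (bars, n = 3). The BT-549 vehicle libraries lie at 36.3 to 36.8% and the BT-549 DOX libraries at 30.3 to 31.1%, while the DU-145 groups overlap.

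ZNF180 rose most in BT-549 cells. Its bin at chr19:44500401-44500500, in the first noncoding exon and next to the stretch printed above, read 3.57, 5.23 and 3.57 with vehicle and 9.91, 12.7 and 13.9 with DOX. The fold was 2.99 (log2 1.58, SE 0.192, adjusted p = 1.93e-11). The lowest DOX value was well above the highest vehicle value, where a lack of overlap was again a condition for naming members. In BT-549 cells it held in this direction for 24.4% of members, 44.4% of other chromosome 19 promoters and 27.5% of all protein-coding promoters. Of the 10 bins around the start, 8 were higher. ZNF576, whose bin (chr19:43596201-43596300) is shared with IRGQ and SRRM5, rose from 3.91, 3.60 and 4.67 to 6.10, 8.86 and 10.1, a fold of 2.12 (log2 1.08, SE 0.215, adjusted p = 7.21e-05). These 2 members were opening DARs by the cutoffs of the study for this line, a fold change of 2 and an adjusted p under 0.01, which 2.07% of all bins passed as opening and 2.87% as closing. Of the other chromosome 19 promoters, 73 of 745 opened and 3 closed by that rule. ZNF507 was just outside both cutoffs, with a log2 fold change of 0.999 and an adjusted p of 0.0140.

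**Figure D5:**
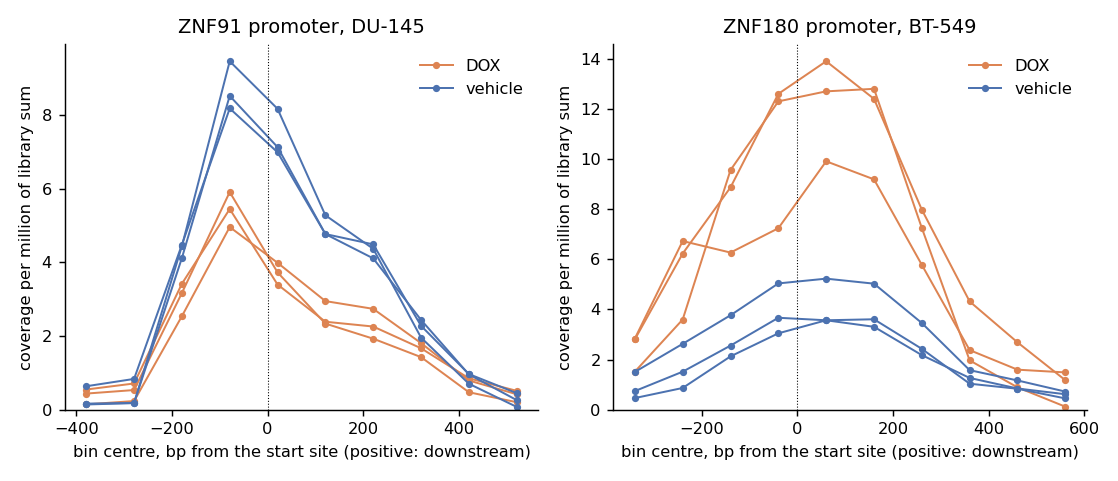
Coverage per 1000000 of the library sum in the 100 bp bins around the start of ZNF91 in DU-145 cells (left) and of ZNF180 in BT-549 cells (right), 1 line per library, against the distance of the bin centre from the start (bp, positive downstream). The DOX lines run below the vehicle lines over the ZNF91 summit and above them over the ZNF180 summit.

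The remaining higher calls in BT-549 cells were smaller. ZNF524 rose from 6.02, 6.10 and 6.15 to 9.58, 10.2 and 11.5 (log2 0.81, SE 0.185, adjusted p = 7.56e-04) in a bin shared with FIZ1. ZNF653, a repressor of steroidogenic factor activity, rose from 5.54 ± 0.950 to 9.86 ± 1.48 (n = 3, log2 0.84, adjusted p = 8.78e-04). ZNF324 rose from 5.35, 5.69 and 5.77 to 9.84, 10.9 and 9.47 (log2 0.83, adjusted p = 8.89e-04). The groups of all 3 were apart, as the choice of named members required. ZNF77 (6.84 ± 0.749 to 11.3 ± 1.28), ZNF555 (6.59 ± 0.630 to 10.8 ± 0.190) and ZNF444 (13.4 ± 0.752 to 19.3 ± 1.09, all n = 3) followed with log2 fold changes of 0.68, 0.68 and 0.51 and adjusted p values of 0.00461, 0.00581 and 0.00527. The calls of ZNF180, ZNF576, ZNF524 and ZNF324 held in every alternative, whereas DESeq2 ended those of ZNF444 (adjusted p = 0.0605) and ZNF555 (0.0558). Without DOX replicate 3 ZNF653 was at an adjusted p of 0.0520, ZNF555 at 0.0546 and ZNF444 at 0.0545, and without DOX replicate 2 ZNF77 was at 0.0584. Without DOX replicate 2 or 3 the number of higher members was 10 or 9. The fold enrichment of the called peaks did not rise with these calls. It was lower in every DOX than in every vehicle library at ZNF576, ZNF524, ZNF324, ZNF77, ZNF555 and ZNF444. At ZNF444 it went from 73.8, 80.8 and 60.1 to 34.7, 35.6 and 37.2. The groups overlapped at ZNF180 and ZNF653. The part of coverage in this was not tested.

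Clusters differed in BT-549 cells as well. In cluster 5, which holds ZNF91, no member was called by edgeR, DESeq2 or limma (0 higher and 2 lower of 30 at an unadjusted p under 0.05 in edgeR, none in DESeq2 and 5 lower in limma), though 1 was called lower with the GC trend removed. The median was -0.12. Its summed coverage over 30 bins was 148, 151 and 138 per 1000000 with vehicle and 123, 154 and 123 with DOX, overlapping between groups. Cluster 9 had a median of 0.28 with no call by the 3 tools (7, 1 and 8 higher at an unadjusted p under 0.05 in edgeR, DESeq2 and limma). Cluster 16 had 11 of the 21 higher calls among 54 members (2 with DESeq2, 3 with the GC trend removed, 4 with loess offsets and 6 with limma), a median of 0.15 (0.03 with loess offsets or the GC trend removed) and a sum of 350, 372 and 319 with vehicle and 400, 435 and 398 with DOX. The 16 other promoters inside cluster 16 had a median of 0.18, near its members, while the 28 inside cluster 2 (ZNF557 to ZNF846) had 0.60 beside 0.48 in its members.

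The difference between the lines was tested as an interaction over the 321351 bins present in both tables, with each member read at its highest bin over all 12 libraries. That bin was the one used in both lines for 155 of the 210 members, and for 55 it differed from that of a line or of both. The DOX effect was higher in BT-549 than in DU-145 cells in 41 of 210 members (19.5%) and lower in 3 (1.43%), against 7.89% and 8.25% of all bins. Among the other chromosome 19 promoters 318 of 723 were higher and 3 lower, with a median difference of 0.67 beside 0.36 in members. Of the 41 members, 6 were lower in DU-145 and higher in BT-549 cells (ZNF576, ZNF160, ZNF787, ZNF444, ZNF749 and ZNF837), 18 were called in DU-145 only, 12 in BT-549 only and 5 in neither. Loess offsets ended or turned the DU-145 call of ZNF576 (adjusted p = 0.634), ZNF160 (0.0620), ZNF444 (0.969) and ZNF837 (0.754), and DESeq2 the BT-549 call of ZNF160 (0.185), ZNF444 (0.0605) and ZNF837 (0.176). Without BT-549 DOX replicate 2 the count was 23, and the DU-145 call of ZNF576 (adjusted p = 0.0409) was lost in 5 of the 6 fits that left out 1 library. ZNF180 differed most, at 1.73 on the log2 scale (SE 0.221, adjusted p = 1.33e-09), since its DU-145 values were 9.74, 9.49 and 8.87 with vehicle and 8.27, 8.86 and 8.30 with DOX. ZNF576 (1.39, SE 0.249, adjusted p = 1.03e-05), ZNF444 (1.003, SE 0.176, adjusted p = 6.48e-06), ZNF324 (1.14, SE 0.233, adjusted p = 1.14e-04) and ZNF787 (0.98, SE 0.210, adjusted p = 2.41e-04) had the next smallest adjusted p values, while larger differences than some of these were found at larger p, as for the bin of ZNF540 and ZNF571 (1.21, adjusted p = 0.00288). ZNF787 fell in DU-145 cells (12.2 ± 2.39 to 9.07 ± 0.810, adjusted p = 0.00119) and rose in BT-549 cells (8.37 ± 1.31 to 12.4 ± 0.672, adjusted p = 0.0168, n = 3), without overlap of groups in either line, but the first call was lost with loess offsets (0.605) and the second with DESeq2 (0.124). The 3 members with a lower effect in BT-549 cells were ZNF730 (-0.99, adjusted p = 0.0398) and ZNF580 with ZNF581, which share a bin (-0.95, adjusted p = 0.0184). For these 3 the bin lay elsewhere than in at least 1 line. ZNF730 was read at the start used in BT-549 cells (chr19:23117001-23117100), whereas at its DU-145 bin (chr19:23075301-23075400) it fell with DOX (log2 -0.61, adjusted p = 0.00619), and its own value in BT-549 cells was -0.43 (adjusted p = 0.368). Across the 210 members the fold changes of the lines, fitted on separate tables, correlated at r = 0.06. For ZNF91 the difference was 0.71 (SE 0.271, adjusted p = 0.0571), with BT-549 values of 5.56, 4.83 and 5.39 against 3.73, 5.17 and 6.68.

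Members with known roles were taken whatever their values. ZNF93, which like ZNF91 targets L1 elements, was called in neither line (3.41 ± 0.398 and 3.31 ± 0.138 in DU-145, 6.17 ± 0.586 and 5.74 ± 1.29 in BT-549, vehicle and DOX, n = 3). ZNF274, which brings TRIM28 and SETDB1 to the 3′ ends of zinc finger genes, was not called either (7.53 ± 0.467 and 6.81 ± 0.363 in DU-145, 7.50 ± 1.32 and 9.66 ± 2.57 in BT-549). ZNF224, a repressor of aldolase A, fell in DU-145 cells from 4.43, 4.10 and 4.90 to 2.95, 3.28 and 2.67 (log2 -0.56, adjusted p = 0.00177), though not over the sum of its window (-0.18, adjusted p = 0.253). ZNF8 fell from 12.6, 10.8 and 11.9 to 8.97, 8.51 and 8.12 in DU-145 cells (log2 -0.45, adjusted p = 3.16e-04), and with loess offsets it was at -0.11 (adjusted p = 0.409). ZNF160, a repressor of TLR4, fell in DU-145 cells (6.28 ± 0.425 to 4.45 ± 0.300, adjusted p = 0.00152, or 0.0620 with loess offsets) and rose in BT-549 cells (6.81 ± 0.660 to 10.0 ± 0.569, adjusted p = 0.0487). The imprinted gene ZNF331 (6.46 ± 0.263 to 9.85 ± 1.44, adjusted p = 0.0168) and ZNF473, which acts in histone pre-mRNA processing (5.06, 5.16 and 4.79 to 10.1, 5.20 and 8.37, adjusted p = 0.0292), rose in BT-549 cells. These 3 BT-549 calls were lost with DESeq2 (adjusted p = 0.185 for ZNF160, 0.110 for ZNF331 and 0.152 for ZNF473), and that of ZNF473 without DOX replicate 1 (0.318). ZNF382, which represses NF-kB and AP-1 targets, and ZNF83 were not called in either line, with log2 values of -0.03 and -0.18 in DU-145 and 0.77 and 0.37 in BT-549 cells.

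Promoters of the partners of KRAB zinc finger proteins were read in the same way. The list of 24 genes held TRIM28, SETDB1, ATF7IP, HP1 and CHD proteins, HDACs, the HUSH complex and DNA methyltransferases, and all 24 had a bin in both lines. In DU-145 cells 15 were lower and edgeR called none higher (also none at an unadjusted p under 0.05, and none with DESeq2 or limma), with a median of -0.39 that stayed below 0 under every scaling (-0.18 with 6 lower calls with loess offsets). Over all protein-coding promoters 45.5% were lower and the median was -0.29. TRIM28 itself fell from 13.2, 12.6 and 11.6 to 8.63, 8.13 and 9.17 (log2 -0.54, SE 0.102, adjusted p = 1.38e-05), and SETDB1 from 10.7, 11.6 and 11.3 to 8.06, 8.43 and 8.66 (adjusted p = 7.90e-04). Both were apart between groups, as were 51.9% of all protein-coding promoters in this direction. In BT-549 cells ATF7IP, CHD3, MORC2 and UHRF1 were higher and none was lower by edgeR, DESeq2 or limma (none lower at an unadjusted p under 0.05 in any of them), and the median was 0.25, or 0.06 with the GC trend removed. DESeq2 called 1 of the 24 higher, and over all protein-coding promoters 13.4% were higher by edgeR with a median of 0.19. TRIM28 read 14.8, 17.3 and 13.2 with vehicle and 16.6, 16.5 and 13.5 with DOX there, overlapping between groups.

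Members that hold the ETS letters in their promoter did not stand out in DU-145 cells, where 89 such members had a median of -0.16 and 100 without them -0.18. In BT-549 cells the medians were 0.10 in 93 members with the letters and 0.25 in 106 without. For NFY the BT-549 medians were 0.13 in 112 members with CCAAT and 0.28 in 87 without. These are medians over genes that share libraries, and the differences were not tested.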

How the data were processed

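ATAC-seq of 12 libraries was analysed from the bin tables and peak lists that the authors deposited. Per the labels and the methods, the authors aligned to GRCh38 with BWA, removed duplicates with Picard and called peaks per replicate with MACS2 2.2.7.1 at a q-value of 0.05. Regions found in at least 3 replicates were divided into 100 bp bins. The deposited bin values are estimated counts, the mean fragment coverage of a bin, without depth normalization. The peak lists, as deposited, give the MACS2 score, the fold enrichment and the -log10 p and q-values. Their positions, q-values and fold enrichment were used.

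Values were rounded and tested with edgeR 4.0.16 (robust quasi-likelihood, library size = library sum, R 4.3.3) over all bins with a total of at least 10, separately per line, with Benjamini-Hochberg adjustment over all tested bins. The SE is the log2 fold change divided by the square root of F. The interaction of line and DOX was fitted over 12 libraries. TSSs came from GENCODE v44. Alternatives used TMM factors, DESeq2 1.42.0, limma 3.58.1 (pseudocount 1), loess and GC offsets (pseudocount 0.5), other filters, bins and comparison sets, a replicate block and leaving out each library. The code was tested on simulated data.

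The members and lists were chosen with earlier results of these data known. Named genes were, per line, up to 8 members per direction with the smallest adjusted p and no overlap between groups, the 5 highest vehicle levels, the 5 smallest interaction p and genes with known roles. The labels give no batch. RNA-seq was not analysed here.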

Additional observations from a re-analysis of the deposited data

Results flagged for a closer look

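The DOX effect differed between the lines (interaction of line and DOX, edgeR, adjusted over 321351 bins) in 20 named members, each time with a higher log2 fold change in BT-549 than in DU-145 cells. Many named members had been picked by their p within a line or in the interaction, so the shared direction was partly set by that choice. It was also not particular to them. Of all 210 members tested, 41 were higher in BT-549 cells and 3 lower. Of 723 other chromosome 19 promoters, 318 were higher and 3 lower. The line difference was 1.73 for ZNF180, 1.39 for ZNF576, 1.21 for the bin of ZNF540 and ZNF571, 1.14 for ZNF324 and 1.003 for ZNF444. It was 0.995 for ZNF524, 0.98 for ZNF787, 0.96 for ZNF653, 0.94 for ZNF555 and 0.92 for the bin of ZNF146 and ZNF565. Smaller differences were found for ZNF473 (0.90), ZNF837 (0.83), ZNF574 (0.80), ZNF8 (0.79), ZNF160 (0.76), ZNF77 (0.76), ZNF331 (0.70) and ZNF497 (0.67). Without BT-549 DOX replicate 1 the calls of ZNF473 (adjusted p = 0.0898) and ZNF497 (0.212) were lost, without replicate 2 those of ZNF160 (0.133) and ZNF331 (0.0730), and without replicate 3 those of ZNF574 (0.0667) and ZNF331 (0.108).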

How the results depend on the processing

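The lower calls in DU-145 cells and their median depended on the scaling, while the median of members stayed below that of other chromosome 19 promoters in BT-549 cells throughout. For members in DU-145 cells, TMM factors gave 1 higher, 95 lower and a median of -0.30, DESeq2 0 higher and a median of -0.32, loess offsets 7, 15 and -0.024, removal of the GC trend 1, 91 and -0.30 with a difference from other promoters of -0.11, and the sum of all bins in the window 8 higher and a median of -0.086. For BT-549 cells DESeq2 called 6 higher, loess offsets 10, removal of the GC trend 8 with 1 lower, the sum of bins 39 with 6 lower, and the highest bin in vehicle libraries 4 lower. There, the difference from other promoters was -0.19 with limma-trend and -0.19 against others in the GC range of members. Leaving out 1 library gave 1 to 3 higher members and a median of -0.21 to -0.14 in DU-145 cells, and 9 to 21 higher members with a difference of -0.30 to -0.23 in BT-549 cells. For the interaction it gave 23 to 46 higher and 1 to 3 lower members, the lowest count without BT-549 DOX replicate 2.

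Values that turned in sign with loess offsets in DU-145 cells included ZNF444 (0.006), ZNF558 (0.27, adjusted p = 0.00666), ZNF77 (0.28, adjusted p = 0.0144) and cluster 16 (0.016). At the 5′ end of the gene, ZNF540 (0.068), ZNF565 (0.788) and ZNF420 (0.155) turned in DU-145 cells. The line difference of ZNF93 ran from -0.271 to 0.021 when 1 library was left out, positive without BT-549 DOX replicate 1. The cause was not tested. Over the alternatives, 81 tests of named members in 1 line kept their direction and lost their call, and 19 kept it and gained one. A further 6 turned in sign with a call in the main run or the alternative. Turns without a call were not among these, as for ZNF446 in BT-549 cells (0.27 in the main run, -0.84 at the lowest).

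Replicate numbers did not pair the samples (correlations of same-numbered deviations 0.077, 0.102 and -0.063 in DU-145 and 0.005, 0.059 and 0.020 in BT-549 cells). With the replicate block, 3 members were higher and 64 lower in DU-145, 20 higher and 0 lower in BT-549 cells, and 50 higher and 3 lower in the interaction. The median SE of the log2 fold change over members was 0.251 in BT-549 and 0.137 in DU-145 cells, so smaller changes were detectable in DU-145 cells.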
